A study of Mus musculus with 6 samples.

Results

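The Dlk1-Meg3 cluster is an imprinted stretch of mouse chromosome 12 in which each gene is active mainly on the copy inherited from 1 parent. The 6 members followed here were Dlk1, Rtl1 and Dio3, read from the paternal copy, and Meg3, Rian and Mirg, read from the maternal copy. They were listed by symbol, and the cluster was picked because Dlk1 and Rtl1 were higher in the mutant cells, so the changes of the members in that comparison are descriptions and carry no test. Of the 6 members, 4 were matched to a row among the 37991 gene rows of the count files. Those were Dlk1, Rtl1, Dio3 and Meg3. Rian and Mirg matched no row by identifier, so these long transcripts were not analysed here.

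RNA was sequenced from cells that carry a Nestin-GFP reporter, which marks cells with an active Nestin regulatory sequence. The cells were sorted from the dermis and the subcutaneous white fat attached to it, in pups 3 days old. The 3 control mice were Nes-GFP. The 3 mutant mice were Nes-GFP;Nes-Cre;PDGFRα+/[S]D842V, which adds a Nestin-driven Cre recombinase and 1 copy of the platelet-derived growth factor receptor alpha gene with the constitutively active change D842V. The labels do not explain the "[S]". All mice share the reporter, and the control genotype as labelled has no Nestin-Cre, so the recombinase and the active receptor cannot be told apart in this comparison. The labels give 3 mice per genotype and 6 RNA samples and do not state outright that each library is 1 mouse. No litter, strain, sex or batch is named in the labels.

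Dlk1 encodes a transmembrane protein with epidermal growth factor repeats that resembles the ligands of Notch receptors. Its shed form, known as preadipocyte factor, holds fat cell precursors back from differentiating. Rtl1 is a gene domesticated from a retrotransposon and is needed in placental capillaries and in developing muscle. Dio3 encodes the deiodinase that inactivates thyroid hormone. Meg3 is a long noncoding RNA, Rian hosts C/D box small nucleolar RNAs, and Mirg hosts many microRNAs. A control region between Dlk1 and Meg3, methylated on the paternal copy only, sets which genes of the cluster are active on each copy. The maternal copy also makes microRNAs from the strand opposite Rtl1, so they are complementary to the paternal Rtl1 transcript.

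Those microRNAs tie the maternal RNAs to a paternal member by sequence, and 1 mature form of each of 6 hairpins is shown 5′ to 3′ with the seed, bases 2 to 8, in capitals.
miR-431-5p: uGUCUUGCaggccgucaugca
miR-433-3p: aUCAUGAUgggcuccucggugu
miR-127-3p: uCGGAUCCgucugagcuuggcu
miR-434-3p: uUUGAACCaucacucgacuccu
miR-432: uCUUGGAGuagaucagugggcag
miR-136-5p: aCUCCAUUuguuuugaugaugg
Rtl1 site of miR-127-3p: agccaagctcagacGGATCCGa
All sequences are from RefSeq on GRCm38.p6, and all of these microRNAs lie on the plus strand, from miR-431-5p at chr12:109590459-109590479 through miR-433-3p at chr12:109591781-109591802, miR-127-3p at chr12:109592888-109592909, miR-434-3p at chr12:109594565-109594586 and miR-432 at chr12:109595006-109595028 to miR-136-5p at chr12:109595331-109595352. The 6 hairpins have 11 mature sequences in the table, and all 11 matched the 6358 base Rtl1 transcript without a mismatch, inside its protein-coding part. That match follows from their place on the opposite strand of Rtl1. The capitals in the Rtl1 site mark the bases that pair with the seed of miR-127-3p, and the site begins at transcript position 2642. The 11 seeds are all different, so none of these microRNAs share a seed.

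The 250 bases before the start of Dlk1 and of Meg3 are shown because these neighbours differ in their change below. CG pairs, the sites of DNA methylation, are in capitals.
Dlk1, chr12:109452573-109452822, plus strand: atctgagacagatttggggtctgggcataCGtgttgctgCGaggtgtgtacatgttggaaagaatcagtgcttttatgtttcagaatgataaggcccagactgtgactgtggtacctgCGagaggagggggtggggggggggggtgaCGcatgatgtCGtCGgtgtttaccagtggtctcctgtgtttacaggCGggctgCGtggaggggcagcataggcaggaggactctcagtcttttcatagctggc
Meg3, chr12:109540746-109540995, plus strand: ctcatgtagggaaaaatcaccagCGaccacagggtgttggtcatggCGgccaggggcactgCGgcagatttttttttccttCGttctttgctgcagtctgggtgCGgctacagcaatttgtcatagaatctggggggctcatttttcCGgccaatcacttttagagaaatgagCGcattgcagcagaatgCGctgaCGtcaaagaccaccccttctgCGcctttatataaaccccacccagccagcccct
The Dlk1 stretch holds 8 CG pairs, and 43% of the 32851 RefSeq promoter stretches of the same length hold at least as many. The Meg3 stretch printed holds 10, a count reached by 37.8% of them. The table has another Meg3 start, whose stretch at chr12:109545148-109545397 holds 0 CG pairs. Dio3 has the richest stretch of the members, with 21 CG pairs, a count reached by 16.3%. The printed Meg3 stretch also holds TATAAA, a motif in 12.4% of the stretches searched on both strands, and TGACGTCA, the letters bound by CREB family factors, in 1.55%. The Dio3 stretch holds TATAAA as well, and neither motif is in the Dlk1 stretch. TGACGTCA was picked after the Meg3 sequence had been seen, and a match of letters is not evidence of binding. Rtl1 has no entry in the promoter table, and DNA methylation was not measured in these libraries.

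Gene counts per library ran from 11912469 to 18792939. The correlation of log2 levels over genes was 0.984 to 0.990 between libraries of 1 group and 0.970 to 0.980 between groups. Pdgfra, the gene that carries the mutant allele, was at 856, 819 and 855 CPM (counts scaled to a common library total, here with TMM factors) in the control libraries and at 368, 345 and 358 CPM in the mutant libraries. Nes, whose regulatory sequence drives the reporter and the recombinase, was at 67.8 to 79.1 CPM in controls and 74.2 to 99.5 CPM in mutants. The series calls the cells pericytes, and all 13 pericyte markers listed were detected, with a summed level of 1338 to 1673 CPM in controls and 1292 to 1617 CPM in mutants. All 12 fibroblast and adipose progenitor markers were detected too, at far higher summed levels. These were 69520 to 77560 CPM in controls and 57320 to 70880 CPM in mutants. The collagen genes Col1a1 and Col1a2 made up most of that sum, with means of 40970 and 27370 CPM in controls. Dcn, the next highest marker of the list, had a mean of 1470 CPM in controls. Of 15035 genes that passed a filter on low counts, 17.8% were called at an adjusted p under 0.05 by edgeR's quasi-likelihood test, 8.63% higher and 9.13% lower in the mutant.

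Dlk1 (ENSMUSG00000040856) had higher levels in every mutant library. Its level was 997, 1424 and 1192 CPM in control replicates 1 to 3 and 3040, 2882 and 3336 CPM in mutant replicates 1 to 3. The groups did not overlap, and the lowest mutant library stood 2.02 times above the highest control library. The mean was 1204 ± 214 CPM in controls and 3086 ± 231 CPM in mutants (SD, n = 3 each), a ratio of 2.56. In the edgeR fit over all genes the log2 fold change of Dlk1 was 1.36 (SE 0.12, 95% interval 1.09 to 1.63). A log2 fold change at least this high was found for 125 genes, 0.83% of those tested. In these sorted cell pools a higher level per cell and a larger share of cells that make the RNA cannot be told apart.

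Per kilobase of exon, Dlk1 stood at 176, 252 and 211 RPKM (the same scaling with division by exon length) in controls and at 537, 509 and 590 RPKM in mutants. That placed it 155th, 94th and 125th among 22487 genes in the control libraries and 47th, 41st and 36th in the mutant libraries. Dlk1 was thus among the abundant RNAs of the sorted cells in both genotypes.

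Rtl1 (ENSMUSG00000085925) differed between the groups by a similar factor, from a far lower level. It had 83, 84 and 109 counts in controls and 217, 279 and 350 counts in mutants. This came to 5.31, 7.04 and 6.97 CPM in controls and 14.5, 18.1 and 18.4 CPM in mutants. All mutant libraries lay above all control libraries, and the lowest mutant was 2.06 times the highest control. The mean was 6.44 ± 0.98 CPM in controls and 17.0 ± 2.17 CPM in mutants (SD, n = 3 each), a ratio of 2.64. The log2 fold change of Rtl1 in the same fit was 1.41 (SE 0.15, 95% interval 1.08 to 1.74). Counting error is a larger part of the spread here, since the 95% Poisson interval ran from 4.23 to 6.58 CPM in control replicate 1 and from 12.7 to 16.6 CPM in mutant replicate 1. Such intervals cover counting error only, since nothing marks which reads are copies of 1 molecule. On the RPKM scale Rtl1 was at 0.835 to 1.11 in controls and 2.29 to 2.90 in mutants.

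Dio3 (ENSMUSG00000075707), the third paternal member, was near the limit of these libraries. It had 22, 23 and 17 counts in controls and 42, 27 and 23 in mutants. The levels were 1.41, 1.93 and 1.09 CPM in controls and 2.81, 1.75 and 1.21 CPM in mutants. Mutant replicate 1 was the highest, and the other mutant libraries lay within the control range. The mean was 1.47 ± 0.42 CPM in controls and 1.93 ± 0.81 CPM in mutants (SD, n = 3 each). The log2 fold change of Dio3 was 0.39 (SE 0.35) with a 95% interval from -0.37 to 1.15. Without mutant replicate 1 the log2 fold change was 0.007, and without mutant replicate 3 it was 0.65.

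Meg3 (ENSMUSG00000021268), the only maternal member with a row, differed little between the group means. Its level was 919, 1125 and 1048 CPM in controls and 900, 1280 and 1323 CPM in mutants. Mutant replicate 1 was the lowest of all 6 libraries and the other mutant libraries were the highest, so the groups overlapped. The mean was 1030 ± 104 CPM in controls and 1168 ± 232 CPM in mutants (SD, n = 3 each), a ratio of 1.13. The log2 fold change of Meg3 was 0.18 (SE 0.14, 95% interval -0.14 to 0.50). Per kilobase of exon Meg3 was at 50.8, 62.2 and 57.9 RPKM in controls and 49.8, 70.7 and 73.1 RPKM in mutants, ranks of 433 to 722 among the 22487 genes.

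**Figure D1:**
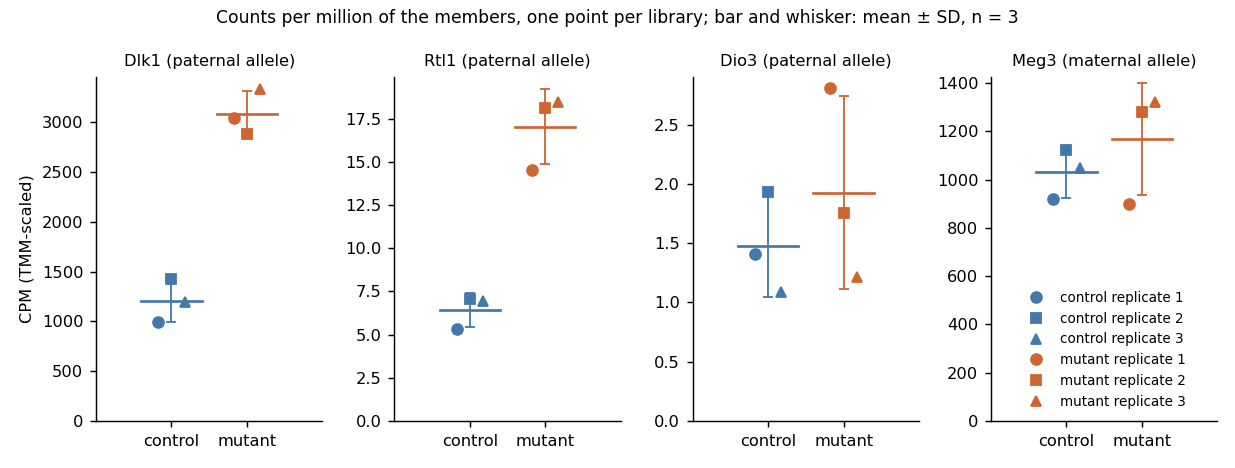
The vertical axis of each panel gives CPM of 1 member from 0, and each point is 1 library of the control (left) or mutant (right) group, with the mean and SD of 3 libraries. The mutant points of Dlk1 (2882 to 3336 CPM) and Rtl1 (14.5 to 18.4 CPM) sit above all control points, while those of Dio3 and Meg3 overlap the controls.

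Counted together, 2 of the 4 members with a row passed the threshold for a higher level, none passed for a lower level, and 2 passed neither, beside 8.63% of all tested genes called higher. The same 2 members had groups that did not overlap with the mutant above, beside 19.1% of all tested genes. Nothing is read from these counts, since the cluster was chosen on this comparison.

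Ratios of 1 member to another within a library do not depend on library size or scaling. There were 1.09, 1.27 and 1.14 Dlk1 counts per Meg3 count in control replicates 1 to 3 and 3.38, 2.25 and 2.52 in mutant replicates 1 to 3. The raw counts of these neighbours were close to even in all controls, with Dlk1 ahead in all mutants. On the log2 scale the ratio was 0.21 ± 0.11 in controls and 1.42 ± 0.30 in mutants (SD, n = 3 each), a difference of 1.21. Meg3 has the longer exons, and with counts divided by exon length Dlk1 was ahead in both groups, 3.47 to 4.05 times Meg3 in controls and 7.20 to 10.8 times Meg3 in mutants. Summing the 3 paternal members in place of Dlk1 left the log2 difference at 1.20, since Dlk1 supplied nearly all of the paternal counts.

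The ratios that involve Dlk1 or Rtl1, here and above, restate the choice of the cluster and are given for their spread between libraries. The log2 ratio of Rtl1 to Meg3 was -7.43, -7.32 and -7.23 in controls and -5.95, -6.14 and -6.16 in mutants, so all mutant libraries lay above all controls, by 1.24 on average. For every 1000 Dlk1 counts, the count of Rtl1 was 5.32, 4.94 and 5.85 in controls and 4.78, 6.29 and 5.53 in mutants. Those values overlapped between the genotypes, with both the lowest and the highest library in the mutant group, and the mean log2 ratio differed by 0.04. The log2 ratio of Dio3 to Meg3 differed by 0.18 between group means and overlapped widely, from -9.91 to -9.19 in controls and from -10.1 to -8.32 in mutants.

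**Figure D2:**
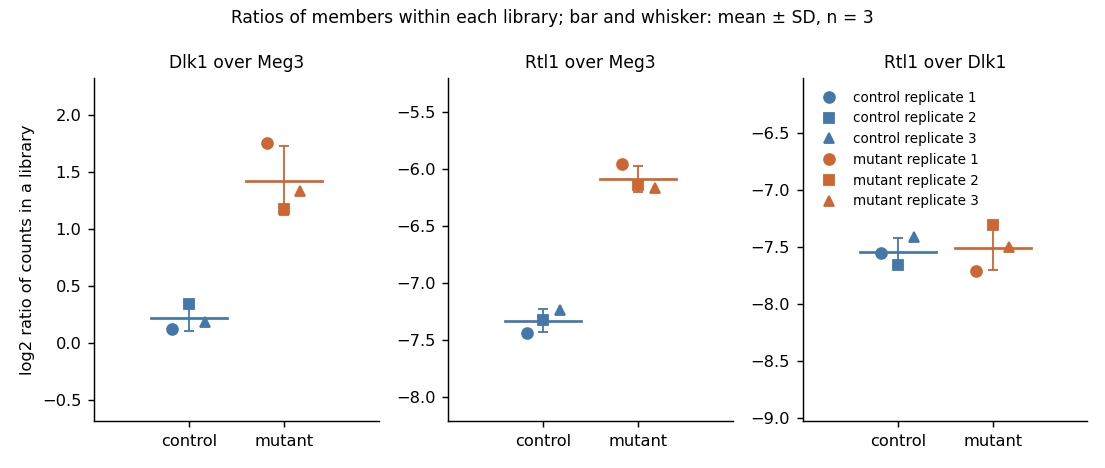
The vertical axis is the log2 ratio of counts of a pair of members in a library, drawn over the same span of 3 log2 units in each panel, with points for libraries and the mean and SD of 3 libraries. Dlk1 over Meg3 and Rtl1 over Meg3 are higher in every mutant library, by 1.21 and 1.24 on average, and Rtl1 over Dlk1 overlaps between groups.

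Between Dlk1 and Dio3 the files hold 79 rows, of which 75 are small RNAs, 53 microRNA hairpins and 22 small nucleolar RNAs. The labels do not say how much small RNA these cDNA libraries kept, and a read in such a row may come from a longer transcript that spans it. Of the 75 rows, 17 had no count in any library and 19 had at least 10 counts over all 6 libraries. The filter on low counts left 2 of them.

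The 5 hairpin rows opposite Rtl1 (Mir431, Mir433, Mir127, Mir434 and Mir432) had 11, 13 and 10 counts together in controls and 32, 21 and 38 in mutants. In CPM this was 0.704, 1.09 and 0.640 against 2.14, 1.36 and 2.00, with every mutant library above every control. The ratio of their means was 2.27, beside 2.64 for Rtl1. Mir433, the best covered of them, had 6, 5 and 5 counts in controls and 9, 11 and 17 in mutants. Mir127, whose mature form is printed above with its Rtl1 site, had 0, 2 and 1 counts in controls and 6, 6 and 9 in mutants. No source states whether counting used the strand, so reads of Rtl1 itself and of the opposite strand cannot be told apart in these rows or in that of Rtl1. Mir136 has no row of its own in the files.

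The 16 small RNA rows inside Rian are the nearest measure of the maternal noncoding RNAs beyond Meg3. Together they had 92, 75 and 92 counts in controls and 57, 85 and 110 in mutants. Their summed level was 5.88, 6.29 and 5.88 CPM in controls and 3.82, 5.52 and 5.80 CPM in mutants. The mutant libraries lay below the controls, but mutant replicate 3 missed the lowest control by less than the level of 3 counts. The mean was 6.02 ± 0.23 CPM in controls and 5.05 ± 1.07 CPM in mutants (SD, n = 3 each), a ratio of 0.838. Among these rows the small nucleolar RNA Gm23474 had the most counts, 30, 18 and 29 in controls and 20, 30 and 32 in mutants. Its log2 fold change was -0.09 (SE 0.27). The other rows inside Rian with at least 10 counts were Mir1188, Gm24564, AF357425, Gm24899, Gm23600, Gm23508, Gm26922, DQ267102 and Gm25357.

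Farther along, between Rian and Dio3, 46 small RNA rows, most but not all of them on the plus strand, held 25, 21 and 21 counts in controls and 36, 23 and 44 in mutants. The level was 1.57 ± 0.21 CPM in controls and 2.08 ± 0.51 CPM in mutants (SD, n = 3 each), and the groups overlapped. Mir3072 was the best covered row there, with 3, 8 and 10 counts in controls and 11, 6 and 9 in mutants, and Mir382, Mir134 and Mir453 were the others with at least 10. The 5 rows between Meg3 and Rtl1 held 10 counts in all controls together and 12 in all mutants. Along the cluster, then, the mutant libraries stood clear of the controls at Dlk1 and at Rtl1. At the rows opposite Rtl1 they also lay above, but on few counts, 21 in mutant replicate 2 beside 13 in control replicate 2. Those rows may share reads with Rtl1.

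**Figure D3:**
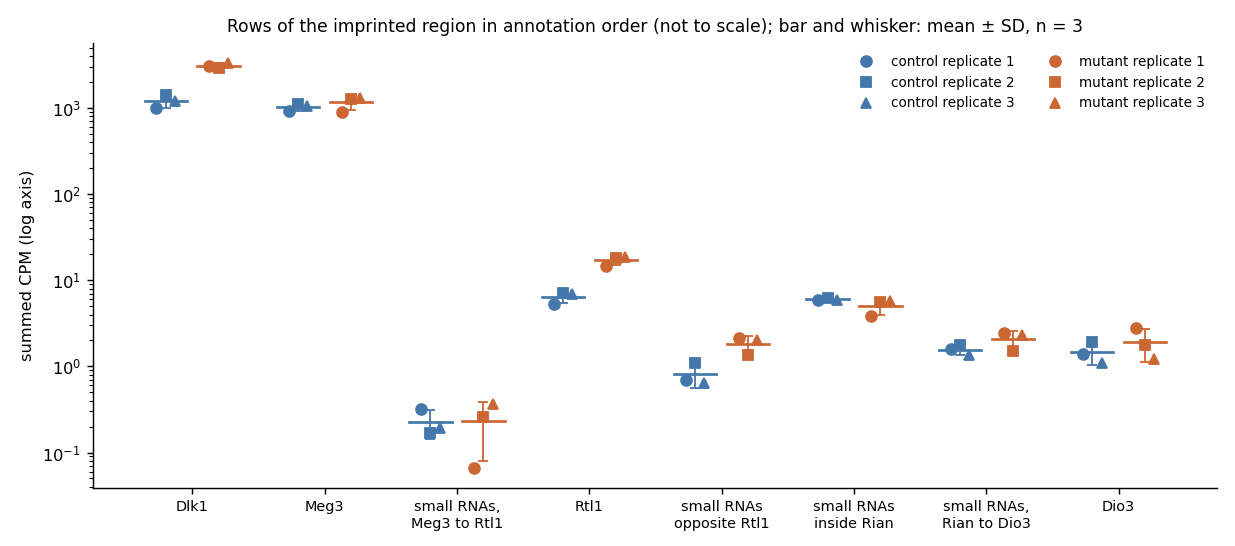
The vertical axis is summed CPM on a log axis for members and groups of small RNA rows, placed left to right in annotation order and not to scale, with 1 point per library and the mean and SD of 3 libraries. Mutant points lie clear above control points at Dlk1 and Rtl1. They lie above them on few counts at the small RNA rows opposite Rtl1 (ratio of means 2.27), and near the controls at the rows inside Rian (0.838).

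The genes on either side of the imprinted stretch are mostly not imprinted. Of 19 flanking genes tested with edgeR, 1 was called higher and 6 lower, with a median log2 fold change of -0.10 beside 0.01 over all tested genes. Of all tested genes 8.63% were called higher and 9.13% lower. Begain, which lies before Dlk1 and encodes a protein of neuronal synapses, was the one that rose, from 12.1 ± 0.55 to 18.2 ± 1.87 CPM (SD, n = 3 each; log2 fold change 0.59, edgeR adjusted p = 0.0062). Hsp90aa1, the stress-inducible form of the HSP90 chaperone, fell from 598 ± 67.8 to 357 ± 23.9 CPM (edgeR log2 fold change -0.74, adjusted p = 0.000523). Yy1, a widely expressed zinc finger factor, fell by 0.33 on the log2 scale (edgeR adjusted p = 0.0115). Without mutant replicate 3 the lower calls numbered 3.

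Genes that keep or erase imprints are known to act on the control region of this cluster. Of 17 tested, none was called higher and 4 were called lower, beside 8.63% and 9.13% of all tested genes. The median log2 fold change of the list was -0.15. Tet1, which oxidises methylated cytosine, fell from 45.0 ± 3.16 to 33.1 ± 1.40 CPM (edgeR log2 fold change -0.44, adjusted p = 0.00513). Ezh2, the methyltransferase of Polycomb complex PRC2, fell from 66.2 ± 5.40 to 48.5 ± 3.47 CPM (edgeR log2 fold change -0.45, adjusted p = 0.00563). Tet2 was called lower at an edgeR adjusted p of 0.0284, a call lost without control replicate 2, control replicate 3 or mutant replicate 1, with adjusted p up to 0.113. Zfp445, a zinc finger protein that protects imprints, was called at 0.047 and lost that call in 7 of the 12 alternatives. Zfp57, which protects imprints as well, was at 11.8 ± 2.08 CPM in controls and 13.8 ± 1.99 CPM in mutants and was not called. Leaving out control replicate 2, control replicate 3 or mutant replicate 1 left 2 lower calls in this list.

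Imprinted genes outside chromosome 12 included several with higher levels in the same libraries. Of 15 paternally expressed genes elsewhere, 3 were called higher and none lower by edgeR, beside 8.63% and 9.13% of all tested genes. The median log2 fold change of the list was 0.26. Igf2, the fetal growth factor, rose from 1978 ± 90.8 to 3541 ± 304 CPM (edgeR log2 fold change 0.84, adjusted p = 0.000274). Plagl1, a zinc finger factor that acts on other imprinted genes, rose by a log2 fold change of 0.73 (edgeR adjusted p = 0.000662). Mest, a marker of expanding fat tissue, rose by a log2 fold change of 0.79 (edgeR adjusted p = 0.00094). These changes were smaller in size than the log2 fold changes of 1.36 for Dlk1 and 1.41 for Rtl1. Nothing is read from that order, since the cluster was picked because Dlk1 and Rtl1 were higher.

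Of 12 maternally expressed genes elsewhere, 4 were called higher and 1 lower, beside 8.63% and 9.13% of all tested genes. The median log2 fold change of the list was 0.24. Cdkn1c, an inhibitor of cyclin-dependent kinases, was at 226, 301 and 277 CPM in controls and 556, 520 and 575 CPM in mutants. Every mutant library of Cdkn1c lay above every control (log2 fold change 1.04, edgeR adjusted p = 0.00011). H19, a noncoding RNA read from the opposite parental copy to its neighbour Igf2, rose from 2217 ± 103 to 3679 ± 133 CPM (edgeR log2 fold change 0.73, adjusted p = 0.000374). Ube3a, a ubiquitin ligase, fell by 0.52 on the log2 scale (edgeR adjusted p = 0.00743). Igf2r and Gnas were also called higher, at log2 fold changes of 0.32 and 0.30, and lost that call in 4 and 5 of the 12 alternatives. Higher calls numbered 2 when any 1 of control replicates 2 and 3 and mutant replicates 1 and 3 was left out. At Igf2 and H19 the paternal and the maternal gene were thus both higher, whereas at Dlk1 and Meg3 the groups stood apart for the paternal gene alone. That difference between the loci was not tested, and the cluster was picked because Dlk1 and Rtl1 were higher.

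Dlk1 acts on fat cell precursors through its shed ectodomain, and its relation to Notch signalling has been described as inhibitory. Of 18 genes of its processing, receptors and targets tested, 3 were called higher and 1 lower, beside 8.63% and 9.13% of all tested genes. The median log2 fold change of the list was 0.06. Adam17, the protease known to shed Dlk1, and Notch1 were not called. Hes1, a Notch target that Dlk1 is known to affect in fat cell precursors, fell from 58.7 ± 6.91 to 35.0 ± 6.53 CPM (edgeR log2 fold change -0.74, adjusted p = 0.00786). The other Notch targets listed, Hey1 and Heyl, were not called, at log2 fold changes of 0.07 and 0.20. Zfp423, a factor of committed fat cell precursors, rose from 51.0 ± 6.49 to 76.9 ± 6.59 CPM (edgeR log2 fold change 0.59, adjusted p = 0.00299). Klf15, a factor of fat cell differentiation, rose from 0.510 ± 0.26 to 2.42 ± 1.17 CPM (edgeR log2 fold change 2.17, adjusted p = 0.00751), a change that rests on few counts. Pparg, Cebpa, Cebpb and Cebpd were not called, at log2 fold changes of -0.32, -0.06, 0.07 and 0.39. Notch2 was the other higher call, at a log2 fold change of 0.33, and lost it in 4 of the 12 alternatives. Dlk2, the closest relative of Dlk1, stayed near 1 CPM, at 1.02 ± 0.33 in controls and 0.929 ± 0.34 in mutants.

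Rtl1 belongs to a family of genes derived from a Ty3/Gypsy type of retrotransposon. Of 11 relatives tested, 1 was called higher and 1 lower, beside 8.63% and 9.13% of all tested genes. The median log2 fold change of the list was 0.25. Rtl3 was at 36.8, 46.4 and 45.8 CPM in controls and 77.2, 71.2 and 88.5 CPM in mutants, with every mutant library above every control (log2 fold change 0.88, edgeR adjusted p = 0.000514). Arc, a relative whose protein forms capsids and which is induced by cell activity, fell from 16.7 ± 4.79 to 4.74 ± 0.42 CPM (edgeR log2 fold change -1.81, adjusted p = 0.000523). Peg10, an imprinted relative read from the paternal copy, was at 74.3 ± 17.4 CPM in controls and 89.6 ± 10.8 CPM in mutants and was not called.

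Dio3 lowers thyroid hormone inside cells, and 14 genes of thyroid hormone metabolism, transport and response were tested. Of these, 4 were called higher and 1 lower, beside 8.63% and 9.13% of all tested genes. The median log2 fold change of the list was 0.10. Hr, a corepressor that is itself a thyroid hormone target, fell by 0.43 on the log2 scale (edgeR adjusted p = 0.00397). Rxrb, a partner of the thyroid hormone receptors, rose by a log2 fold change of 0.39 (edgeR adjusted p = 0.00827). Thra, a thyroid hormone receptor, was called higher at 0.35 (edgeR adjusted p = 0.0116), a call lost without control replicate 3 at 0.0505. Rxra and Slc16a10 were the other higher calls and lost them in 2 and 7 of the 12 alternatives. Leaving out control replicate 2 or 3 left 2 higher calls. Dio2, the deiodinase that activates the hormone, was at 21.3 ± 1.17 CPM in controls and 18.3 ± 2.42 CPM in mutants and was not called.

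**Figure D4:**
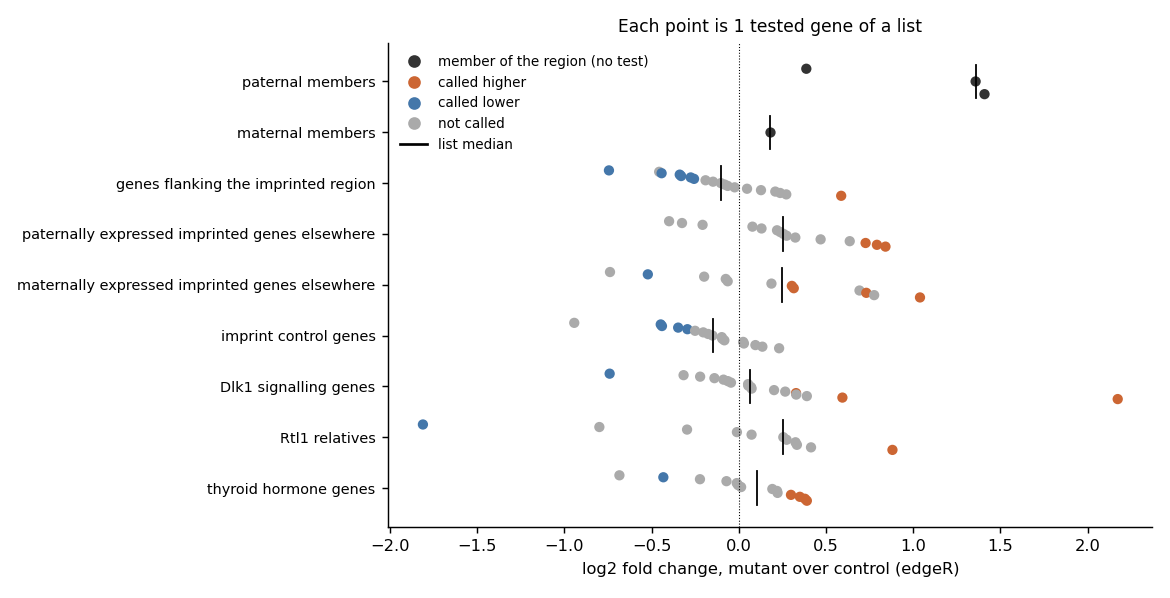
The horizontal axis is the log2 fold change of mutant over control from edgeR, each point is 1 tested gene, and the vertical strokes are list medians. Dlk1 and Rtl1 (black, 1.36 and 1.41, no test) lie to the right of Meg3 and Dio3, and the medians of the other lists lie between -0.15 and 0.26.

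Markers of other cell types that a Nestin-GFP sort could hold moved with the genotype. Of 19 skeletal muscle and satellite cell markers, 15 were called higher and none lower by edgeR, beside 8.63% and 9.13% of all tested genes. The summed level of these markers was 146 to 161 CPM in controls and 282 to 414 CPM in mutants. Pax7, which defines satellite cells, was at 7.61, 10.1 and 9.21 CPM in controls and 16.3, 15.8 and 24.6 CPM in mutants. Its log2 fold change was 1.08 (edgeR adjusted p = 0.00428). The median log2 fold change of the muscle list was 1.32, beside 1.36 for Dlk1 and 1.41 for Rtl1. Both members are known to be made in developing muscle. The summed level of the list was below that of Dlk1 alone in every library, and above that of Rtl1. Dlk1 was at 997 to 1424 CPM in controls and 2882 to 3336 CPM in mutants. Rtl1 was at 5.31 to 7.04 CPM in controls and 14.5 to 18.4 CPM in mutants. Such sums do not show how much of either RNA muscle cells made, which was not tested. Of 12 endothelial markers, 6 were called higher and none lower, with summed levels of 185 to 219 CPM in controls and 294 to 420 CPM in mutants.

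Among adipocyte markers 1 of 9 was called higher, Fabp4, a call lost without control replicate 1, control replicate 2 or mutant replicate 3. Higher calls numbered 3 with DESeq2, and 2 with limma-voom and without mutant replicate 2. The summed level ran from 534 to 729 CPM in controls and from 760 to 1507 CPM in mutants. Mutant replicate 2 was highest on these markers, while its Dlk1 level was the lowest of the mutants. Lep, which defines mature fat cells, was at 0 in all mutant libraries and below 0.1 CPM in the controls. The other markers of the list were detected in every library, so Lep alone does not show that fat cells were absent. Adipoq was at 6.717, 5.281 and 14.96 CPM in controls and 16.68, 61.69 and 9.279 CPM in mutants. Plin1 was at 28.72, 30.01 and 48.79 CPM in controls and 34.83, 48.18 and 14.5 CPM in mutants. Neither was called, at log2 fold changes of 1.672 and -0.155. Of 11 mast cell and macrophage markers 3 were called higher, the mast cell protease genes Tpsb2, Cpa3 and Cma1, and 1 lower. The lower call ended when the filter, control replicate 2, control replicate 3 or mutant replicate 1 was left out. Mcpt4, another mast cell protease gene, was not called, at a log2 fold change of 0.34. Of 12 markers of keratinocytes, nerve glia and melanocytes 3 were called higher, among them the keratin genes Krt5 and Krt1. Leaving out control replicate 3, mutant replicate 1 or mutant replicate 3 left 0 of these higher calls, and leaving out mutant replicate 2 or the filter left 1. The 12 fibroblast and adipose progenitor markers gave 3 higher calls, among them Clec3b, and 2 lower calls, Pdgfra and Dpp4. Lower calls in this list numbered 4 without mutant replicate 1, with DESeq2 and with no filter on low counts. Of the 13 pericyte markers 2 were called higher, the potassium channel subunits Kcnj8 and Abcc9, and none lower, with 1 lower call without control replicate 3, with the replicate block and with no filter. Rgs5, which defines pericytes, was at 405, 213 and 299 CPM in controls and 194, 139 and 222 CPM in mutants and was not called. The calls in these lists stand beside 8.63% of all tested genes called higher and 9.13% called lower. No listed marker of the other cell types was at 0 in all libraries. What part these cells have in the higher Dlk1 and Rtl1 was not tested.

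**Figure D5:**
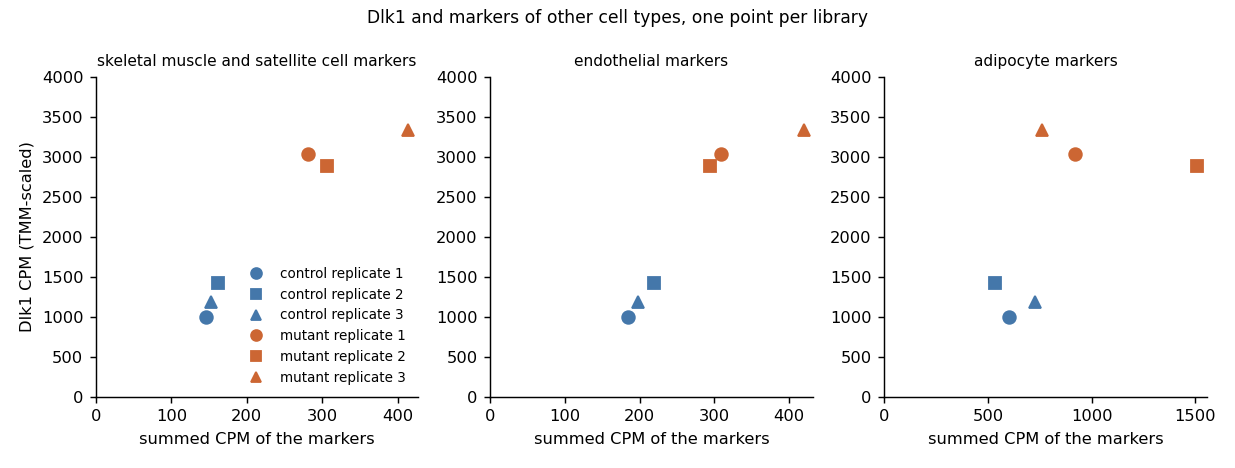
The vertical axis is Dlk1 CPM and the horizontal axis the summed CPM of the markers named above each panel, both from 0, with 1 point per library. The mutant libraries lie higher on both axes in every panel, and within the mutant group the library with the most adipocyte marker counts (1507 CPM) has the lowest Dlk1 (2882 CPM).

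The genes whose levels followed each member most closely over the 6 libraries were ranked by Pearson's r of log2 CPM among 10893 genes whose mean reached 5 CPM. For Dlk1 they were Cdkn1c (r = 0.998), Tmeff2, Klf11, Ldhd and Ptgis (r = 0.996). Cdkn1c, at the head of that order, is the imprinted gene described above. For Rtl1 they were Tomm6os (r = 0.999), Scn3b, Epb41l4aos, Ilkap and Mycl (r = 0.995). For Meg3, whose groups overlapped, they were Zgrf1 (r = 0.986), Sort1, Zbtb49, Plag1 and Pde7a (r = 0.974). These correlations are over 6 points that share their grouping by genotype, and no test is given. With the group means taken out the leading genes were Col13a1, Nlrx1, Jmjd6, Rgs12 and Syvn1 for Dlk1, and Mtbp, Zfp948, Pot1b, Rif1 and Sult1a1 for Rtl1. For Meg3 they were Xntrpc, Pdk4, Casp2, Sort1 and Nek4, so 1 gene, Sort1, stood in both of its lists and no gene did for Dlk1 or Rtl1.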

How the data were processed

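The authors deposited whole-number read counts per gene, 1 file per library, with 37991 gene rows. Another 5 summary rows (reads without a gene, ambiguous reads and the like) held 36.9% to 41.7% of the listed reads and were left out of all totals and tests. Per the submitters' processing notes the build was mm9 and the tools were cutadapt 1.1, TopHat2 2.0.4, HTSeq 0.5.3, FastQC and DESeq2; their roles are not stated. Whether counting used the strand is not stated in them.

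Symbols were matched by identifier for 32919 rows (86.6%, with 99.3% of counts). Exon lengths and gene order came from a GRCm38 annotation, so RPKM values rest on lengths of another build. Counts were scaled by TMM and filtered at a minimum count of 10 and total of 15. They were tested over all genes with edgeR 4.0.16 in R 4.3.3 (robust quasi-likelihood F test, group as the only term, Benjamini-Hochberg adjustment, threshold 0.05). P-values measure the spread between these samples, whose litters are unknown and which may differ only technically. The code was tested on simulated data.

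The members and gene lists were chosen with earlier results of these data known. Named genes were all members, region rows with at least 10 counts, from each list the 3 called genes of lowest adjusted p (failing any call, the 2 most abundant), and the 5 most correlated genes per member. The genes that this rule picks from the muscle and endothelial lists are not named above. Other named genes (Zfp445, Zfp57, Igf2r, Gnas, Notch1, Notch2, Hey1, Heyl, Pparg, Cebpa, Cebpb, Cebpd, Adam17, Dlk2, Peg10, Rxra, Slc16a10, Dio2, Pax7, Rgs5, Col1a1, Col1a2, Dcn, Lep, Adipoq, Plin1, Mcpt4) were chosen after their values were seen. The result of 1 listed gene is not reported here.

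Alternatives were DESeq2 1.42.0, limma-voom (limma 3.58.1), RLE scaling, no filter, at least 1 CPM in 3 libraries, a replicate block, and each library left out. In a row with no count, up to 3 counts are possible, or 0.16 to 0.252 CPM by library.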

Additional observations from a re-analysis of the deposited data

How the results depend on the processing

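The log2 fold changes of Dlk1 (1.23 to 1.49), Rtl1 (1.27 to 1.5), Dio3 (0.007 to 0.65) and Meg3 (0.08 to 0.33) and the log2 difference in the Dlk1 to Meg3 ratio (1.04 to 1.33) moved by less than 1 SD between replicates, pooled over both groups, in every alternative run. Over all genes edgeR called 1298 higher and 1372 lower, and 658 to 1199 higher and 753 to 1500 lower with 1 library left out. The counts were 776 and 881 without control replicate 2, 679 and 807 without control replicate 3, and 658 and 753 without mutant replicate 3. The largest counts, 1650 and 1845, came with no filter on low counts. The labels do not say that replicate numbers pair the mice. With group means taken out, same-numbered libraries correlated at 0.117, -0.029 and -0.087, and different-numbered ones at -0.101 to 0.158. Such values cannot show whether mice were paired. With the replicate block 1328 genes were higher and 1439 lower.

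Flanking genes called higher numbered 2 with limma-voom and 2 with at least 1 CPM in 3 libraries. Without a filter 1 paternally expressed gene elsewhere was called lower and 5 Dlk1 signalling genes higher. With 1 library left out, the ranges were 3 to 5 for flanking genes lower, 2 to 4 for imprint control genes lower, 0 to 1 for paternally expressed genes elsewhere lower, 2 to 4 for maternally expressed genes elsewhere higher, 1 to 2 for Dlk1 signalling genes lower and 2 to 3 for thyroid hormone genes higher. The 1 paternally expressed gene and the second Dlk1 signalling gene called lower appeared without control replicate 1. Causes were not tested, beyond fewer libraries or a changed set of genes. Depth limits Dio3 and the small RNA rows, most of which had under 10 counts in all.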
